A study of Mus musculus with 24 samples.

Results

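The 10 genes described here belong to the NF-kappaB pathway and to the arm of it that the cytokine TWEAK engages: Tnfrsf12a, Map3k14, Ikbkb, Rela, Relb, Nfkb1, Nfkb2, Nfkbia, Tnfaip3 and Bcl3. Their rows were found by symbol in the deposited count table, and all 10 were among its 43346 genes. The list itself was drawn up with earlier results of these data known. All 10 passed the filter on low counts that left 17773 genes for testing. The samples were gastrocnemius muscles of C57BL6 mice, 6 mice in each of 4 groups. Female and male mice were 7 weeks old when cells of LLC1, the Lewis lung carcinoma line of the mouse, were placed under the skin, and the tumour then grew for 3 weeks. The vehicle groups of both sexes were injected with phosphate-buffered saline and carried no tumour. The labels name no transgene or deletion in any group, and the tumour came from 1 transplanted cell line. The design asks how the pathway's own genes respond to the tumour in the muscle of each sex, and whether the responses of the sexes differ.

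NF-kappaB is a family of dimeric transcription factors held in the cytoplasm by inhibitor proteins until a kinase complex marks those inhibitors for destruction. In the canonical route the kinase IKK-beta frees dimers that contain p65, and in the alternative route the kinase NIK drives the processing of the Nfkb2 product to its active form, which pairs with RelB. TWEAK acts through the receptor Fn14, the product of Tnfrsf12a, which is scarce in healthy muscle and is known to appear in muscle that loses its nerve supply or is injured. Bcl-3, an unusual member of the inhibitor family that works in the nucleus with the p50 and p52 subunits, is known from studies of muscle wasting by disuse.

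Bcl3 was the member that rose most clearly with the tumour, 2.79-fold in females and 3.66-fold in males. In males Tnfrsf12a also rose 2.99-fold, Map3k14 1.81-fold and Rela 1.42-fold, and Tnfaip3 fell to 0.447 of its vehicle level. Nfkb2 was called higher in males by a small margin, and that call was lost in 22 of the 33 alternatives run. In females 1 of the 10 members passed the test, Bcl3, where 9.92% of all genes tested passed it. That was 1 member higher, against 4.97% of all genes, and 0 members lower, against 4.95%. In males 6 of the 10 passed, against 36.3% of all genes. Of these 5 were higher, against 19.5%, and 1 was lower, against 16.8%. The median log2 fold change of the 10 genes was 0.21 in females and 0.29 in males, beside -0.01 and 0.01 over all genes tested. At an unadjusted p below 0.05 edgeR gave 6 members in females, beside 25.5% of all genes, and 8 in males, beside 45.8%. Because the list was made with earlier results known, the shares of all genes are given as description and test nothing about it.

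Library totals ran from 26.2 to 47.4 M counts. Muscle fibre markers, led by Myh4 and Acta1, were abundant in every library, their 10 genes summing to 129717 to 205696 CPM (counts scaled to a common library size). They mark skeletal muscle and do not tell which muscle it was. Of these 10 genes 0 were higher and 2 lower with LLC1 in females, and 0 were higher and 3 lower in males. Each group was sequenced in a lane of its own, so that lane and group cannot be told apart. Of 13 neutrophil genes listed, 11 were tested and all 11, S100a9 and S100a8 the most abundant of them, were higher with LLC1 in both sexes. The sum of all 13 was 66.2 to 183 CPM in female LLC1 mice and 4.40 to 9.38 CPM in female vehicle mice. In males the sum was 69.6 to 187 CPM against 3.41 to 8.65 CPM, with Ltf and Elane at 0 in male vehicle mice. Of the 10 fibro-adipogenic progenitor genes, led by Gsn and Dcn, 4 were lower and 1 was higher in females, and 8 were lower and 1 was higher in males. Their sum was 1642 to 3116 CPM in female LLC1 and 2488 to 5056 CPM in female vehicle mice, and 2235 to 2738 CPM against 3149 to 5271 CPM in males. All 7 erythroid genes, led by Hbb-bs and Hba-a1, were higher in both sexes. Of 13 macrophage genes 3 were higher in males, and the sums overlapped, at 174 to 419 CPM in female LLC1, 184 to 397 in female vehicle, 291 to 369 in male LLC1 and 223 to 367 CPM in male vehicle mice. Of 9 endothelial genes 3 were higher in females, and 3 were higher and 3 lower in males. Of 6 B cell genes tested 4 were higher and 1 was lower in males, and 0 were called in females. The B cell sum, over the 7 listed genes found, was 7.59 to 22.1 CPM in female LLC1 and 14.7 to 23.0 CPM in female vehicle mice. In males it was 9.72 to 75.0 CPM with LLC1 (median 19.2) and 28.5 to 59.0 CPM with vehicle (median 41.6). Male LLC1 mouse 1-4 alone was above the vehicle range. The other male LLC1 mice, at 22.5 CPM or below, were under every male vehicle mouse. The part of mouse 1-4 in the calls of single B cell genes was not tested. NF-kappaB genes are expressed by fibres and by these other cells alike, and in whole muscle a change in the number of cells of a type and a change in RNA per cell cannot be told apart. The part of these cell types in the results below was not tested. Libraries from 2 mice stood apart in their marker sums. Female LLC1 mouse 2-4 had an erythroid sum of 19989 CPM against a median of 2577 CPM in its group, and male LLC1 mouse 1-4 had a B cell sum of 75.0 CPM and a T cell sum of 18.1 CPM against medians of 19.2 and 0.796 CPM. Without both, a setting chosen after seeing the data, Bcl3 was still the sole member called in females. In males 6 members were then called, with Nfkb1 (adjusted p = 0.0446, range over its alternatives 0.0170 to 0.162) in the place of Nfkb2.

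**Figure D1:**
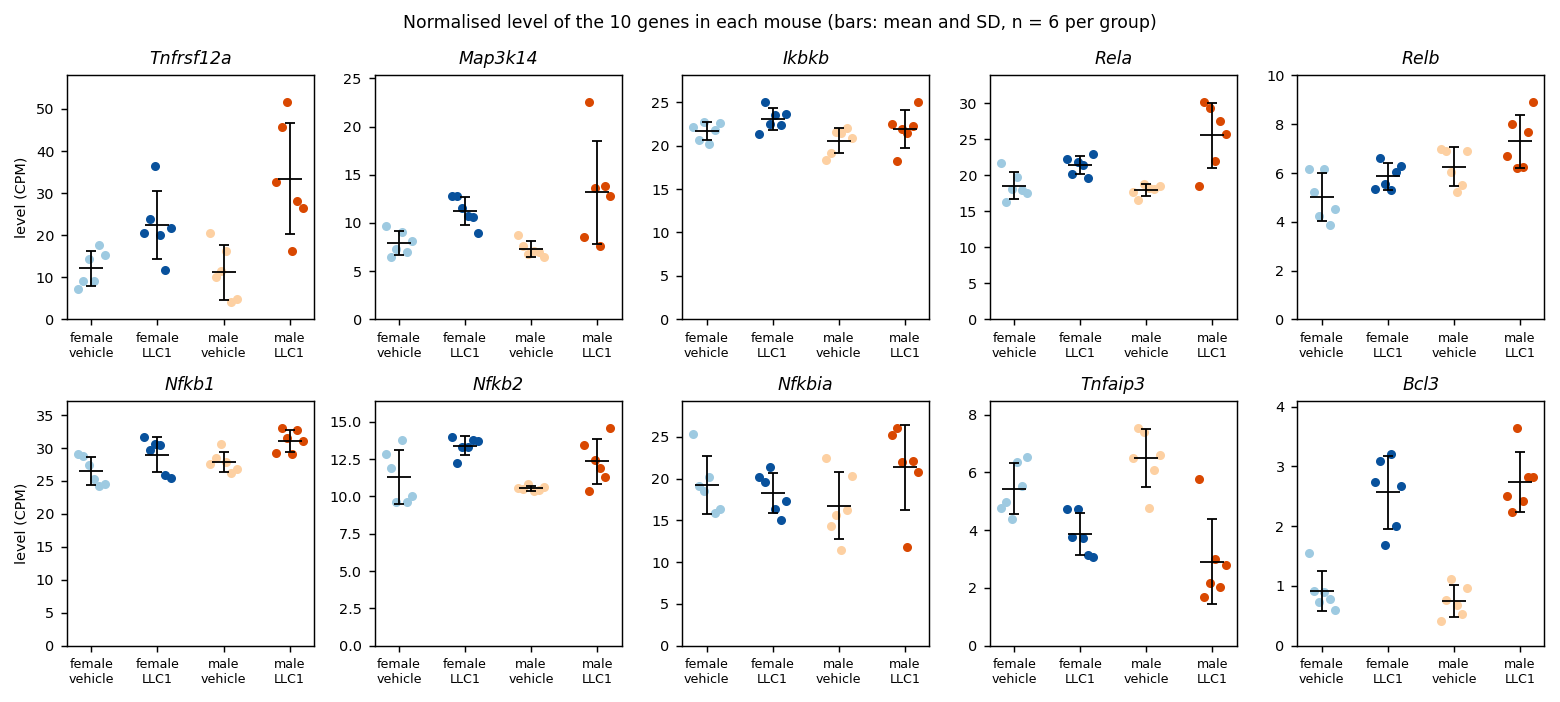
Normalised level in CPM (vertical axes, from 0) of the 10 genes in each of 24 mice by group (horizontal axes), with bars for the mean and SD of 6 mice. The Bcl3 points of LLC1 mice lie between 1.68 and 3.64 CPM, above all vehicle points, which end at 1.55 CPM, and the other members' LLC1 and vehicle points overlap.

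The levels of the 10 genes relative to each other were compared per kilobase of exon, with the exon lengths of the deposited table. In female vehicle mice Tnfrsf12a stood at 12.6 ± 4.29 CPM per kilobase (SD, n = 6) and Nfkbia at 12.2 ± 2.17, ranges that overlapped. Rela followed at 6.83 ± 0.702 and Nfkb1 at 5.56 ± 0.444, which overlapped each other, then Nfkb2 at 3.44 ± 0.550. Relb, Map3k14 and Ikbkb lay close together at 1.29, 1.21 and 1.14 CPM per kilobase and overlapped. Tnfaip3 was at 0.751 ± 0.122 and Bcl3 was lowest of the 10 at 0.366 ± 0.134, with overlap between these 2. Male vehicle mice had the same order of means, from Tnfrsf12a at 11.6 ± 6.67 to Bcl3 at 0.300 ± 0.105. There Tnfaip3 at 0.898 ± 0.139 overlapped Ikbkb and did not overlap Bcl3. With LLC1 Map3k14 came before Relb, in places 6 and 7, with ranges that overlapped. The last 2 places were exchanged too. Bcl3 stood at 1.03 ± 0.243 CPM per kilobase in females and 1.10 ± 0.201 in males, Tnfaip3 at 0.534 ± 0.101 and 0.403 ± 0.205, and their ranges did not overlap in either sex. The upper part of the order depends on the annotation. GENCODE M21 gives Nfkb1 12061 exon bases where the deposited table has 4779, and Tnfrsf12a 1932 where the table has 963. With the GENCODE lengths Nfkbia was first in both vehicle groups, Tnfrsf12a was at 6.28 CPM per kilobase in females and 5.77 in males, and Nfkb1 dropped to 2.20 and 2.32. The place of Ikbkb rests on a length of 19078 exon bases in both annotations, the longest of the 10 genes. Before division by length it was at 21.7 CPM in female vehicle mice, where Rela was at 18.5 CPM.

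RefSeq promoter windows (GRCm38.p6) were at hand for 7 of the 10 genes, and were searched on both strands for the kappaB consensus, the site that NF-kappaB dimers bind. Of 32851 windows of 300 bases over all genes, 8.46% held a match, and 9.55% of the 27025 genes had at least 1 window with a match. The 7 members have 10 windows, of which 6 held a match, and counted by gene 4 of 7 did (Nfkbia, Bcl3, Nfkb2 and Tnfaip3), and none was found in the windows of Tnfrsf12a, Map3k14 and Rela. Windows of Nfkb1, Relb and Ikbkb were not used here. The stretches below are shown because they stand before genes with different responses: 2 that rose in males or in both sexes (Tnfrsf12a, Bcl3), 1 that fell in males (Tnfaip3) and 1 that passed in neither sex (Nfkbia). Each is written 5′ to 3′ on the gene's strand, which is the minus strand for all 4, with kappaB matches in capitals. The Tnfrsf12a stretch is chr17:23677450-23677599, the Nfkbia stretch chr12:55492648-55492797 and the Tnfaip3 stretch chr10:19015411-19015560, each the 150 bases before the RefSeq start. The Bcl3 stretch, chr7:19822744-19822905, runs to base 12 after the start, and 27 of its bases are in the first exon of GENCODE.
Tnfrsf12a: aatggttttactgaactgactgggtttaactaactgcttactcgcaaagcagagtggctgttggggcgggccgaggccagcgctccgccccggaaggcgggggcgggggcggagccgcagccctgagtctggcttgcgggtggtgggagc
Bcl3: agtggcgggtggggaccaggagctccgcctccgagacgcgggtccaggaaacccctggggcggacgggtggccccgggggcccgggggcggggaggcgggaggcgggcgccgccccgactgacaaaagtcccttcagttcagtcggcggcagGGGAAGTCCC
Tnfaip3: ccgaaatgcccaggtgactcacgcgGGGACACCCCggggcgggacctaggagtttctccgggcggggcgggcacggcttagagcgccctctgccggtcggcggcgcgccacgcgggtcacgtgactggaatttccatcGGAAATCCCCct
Nfkbia: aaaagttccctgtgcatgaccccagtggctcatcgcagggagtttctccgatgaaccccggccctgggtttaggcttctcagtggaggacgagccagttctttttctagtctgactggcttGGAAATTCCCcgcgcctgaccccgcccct
In Nfkbia the match lies at -29 to -20 from the start, outside the transcribed part. In Bcl3 it is bases 3 to 12 of the transcript, and it reads as a match on both strands. Tnfaip3 has 2 matches in the stretch, at -125 to -116 and at -12 to -3, which lie in an intron of the longer GENCODE gene. Matching letters describe the sequence and are no evidence that a factor was bound in these muscles.

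Tnfrsf12a (ENSMUSG00000023905, mm10 chr17:23675447-23677449) encodes Fn14, the TWEAK receptor. Its level in vehicle mice ran from 7.25 CPM through a median of 11.7 to 17.6 in females, and from 4.03 through 10.7 to 20.5 in males. In LLC1 mice it ran from 11.6 through 21.1 to 36.5 CPM in females and from 16.3 through 30.4 to 51.7 CPM in males. The groups overlapped in both sexes. The low values of LLC1 mice came from female mouse 2-4 (11.6 CPM) and male mouse 2-2 (16.3 CPM), and the highest from male mouse 2-1. The log2 fold change was 0.88 ± 0.35 (SE, adjusted p = 0.116, edgeR's quasi-likelihood test) in females and 1.58 ± 0.36 (adjusted p = 0.00202) in males. The male call held in all 33 alternatives run, with adjusted p from 0.000147 to 0.0361. The female value passed in 1 of them, a fit of the female groups alone (adjusted p = 0.0468, range over its alternatives 0.0468 to 0.262). Of all members this gene had the widest spread between mice in relation to its mean in vehicle males, at 11.1 ± 6.43 CPM.

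TWEAK itself, Tnfsf12, was lower in males with LLC1, from a mean of 8.80 to 6.53 CPM, a log2 fold change of -0.43 ± 0.09 (adjusted p = 0.00115). In females it was at 8.77 CPM with vehicle and 8.01 with LLC1, a log2 fold change of -0.13 ± 0.09 (adjusted p = 0.387). Of its exon length 48.25% is shared with the read-through gene Tnfsf12Tnfsf13, so its counts are uncertain.

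Map3k14 (ENSMUSG00000020941, mm10 chr11:103219762-103267472) encodes NIK, the kinase that starts the alternative route downstream of Fn14 and other receptors. It ran from 6.51 through 7.68 to 9.67 CPM in female vehicle mice and from 8.94 through 11.2 to 12.8 CPM in female LLC1 mice. In males it ran from 6.42 through 7.03 to 8.79 CPM with vehicle and from 7.59 through 13.2 to 22.6 CPM with LLC1. In females vehicle mice 1-1 and 2-1 (9.67 and 9.06 CPM) stood above the lowest LLC1 mouse. In males LLC1 mice 1-4 and 2-2 (8.58 and 7.59 CPM) stayed within the vehicle range, and mouse 1-5 was highest. LLC1 against vehicle gave a log2 fold change of 0.86 ± 0.18 in males (adjusted p = 0.00101) and 0.51 ± 0.18 in females (adjusted p = 0.0719). The female value was called in 7 of 33 alternatives, among them DESeq2 (adjusted p = 0.0461) and the female groups alone (adjusted p = 0.00831), and its adjusted p ranged from 0.00831 to 0.239.

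Ikbkb (ENSMUSG00000031537, mm10 chr8:22659212-22706589) encodes IKK-beta, the kinase of the canonical route, and was called in neither sex. Its levels were 20.2 to 22.7 CPM in female vehicle, 21.4 to 25.0 in female LLC1, 18.4 to 22.1 in male vehicle and 18.3 to 25.0 CPM in male LLC1 mice. The log2 fold change was 0.09 ± 0.07 in both sexes (adjusted p = 0.411 in females and 0.311 in males). The 95% interval of the difference was -0.05 to 0.23 on the log2 scale in each, so a change above 0.23 lay outside it.

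Rela (ENSMUSG00000024927, mm10 chr19:5637483-5648130) encodes p65, the subunit with the main activating domain of the canonical dimers. It ran from 16.5 through 18.1 to 18.8 CPM in male vehicle mice and from 18.4 through 26.6 to 30.2 CPM in male LLC1 mice. In males 5 of the 6 LLC1 mice lay above every vehicle mouse, and the exception was mouse 1-4, the mouse with the high B and T cell sums. In females it ran from 16.3 through 18.0 to 21.7 CPM with vehicle and from 19.6 through 21.6 to 22.9 CPM with LLC1, and the groups overlapped. In log2 units the difference was 0.51 ± 0.09 in males (adjusted p = 3.10e-04) and 0.20 ± 0.09 in females (adjusted p = 0.165). Leaving out the 2 mice that stood apart, a setting chosen after seeing the data, gave 0.58 in males. Mouse 1-4 was among the 2, so its removal pulled the value upward.

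Relb (ENSMUSG00000002983, mm10 chr7:19606217-19629438) and Nfkb1 (ENSMUSG00000028163, mm10 chr3:135584655-135691547) encode the alternative-route subunit RelB and the p105 precursor of p50. Relb lay between 3.88 and 6.16 CPM in female vehicle and 5.28 and 6.61 in female LLC1 mice, and between 5.21 and 6.99 in male vehicle and 6.21 and 8.92 CPM in male LLC1 mice. Its log2 fold change was 0.22 ± 0.12 (adjusted p = 0.252) in females and 0.23 ± 0.12 (adjusted p = 0.145) in males. Nfkb1 lay between 24.3 and 29.1 CPM in female vehicle and 25.5 and 31.7 in female LLC1 mice, and between 26.2 and 30.5 in male vehicle and 29.1 and 33.0 CPM in male LLC1 mice. Its log2 fold change was 0.13 ± 0.07 (adjusted p = 0.240) in females and 0.15 ± 0.07 (adjusted p = 0.0689) in males. Neither gene was called in either sex, and the upper ends of the 95% intervals were 0.47 for Relb in both sexes and 0.26 and 0.29 for Nfkb1.

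Nfkb2 (ENSMUSG00000025225, mm10 chr19:46304737-46312090) encodes p100, the precursor of p52 and itself a substrate of the route that NIK starts. In male vehicle mice it hardly varied, from 10.4 through 10.5 to 10.8 CPM, and in male LLC1 mice it ran from 10.4 through 12.2 to 14.6 CPM. Female vehicle mice ran from 9.59 through 11.0 to 13.8 CPM and female LLC1 mice from 12.3 through 13.5 to 14.0 CPM. The groups overlapped in both sexes. The log2 fold change was 0.25 ± 0.09 in females (adjusted p = 0.0757) and 0.23 ± 0.09 in males (adjusted p = 0.0483), so the female value was the larger and the male value was the one called. That male call was lost in 22 of 33 alternatives, 17 of them with 1 library left out, and without male LLC1 mouse 2-5 the adjusted p was 0.132. Its range over the alternatives was 0.0238 to 0.132. DESeq2 called the female value (adjusted p = 0.0417, range over its alternatives 0.0226 to 0.161). The promoter of Nfkb2 holds overlapping kappaB matches within the 30 bases chr19:46304692-46304721 on the plus strand, shown with the matched bases in capitals and lying in an exon of GENCODE upstream of the RefSeq start.
Nfkb2: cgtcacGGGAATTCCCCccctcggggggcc

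Nfkbia (ENSMUSG00000021025, mm10 chr12:55489411-55492647) encodes IkappaB-alpha, the inhibitor that canonical signalling destroys and that NF-kappaB then induces again. Its level ran from 15.9 through 18.8 to 25.4 CPM in female vehicle and from 15.0 through 18.4 to 21.3 CPM in female LLC1 mice. In males it ran from 11.5 through 15.9 to 22.5 CPM with vehicle and from 11.8 through 22.1 to 26.0 CPM with LLC1. The other 5 male LLC1 mice were at 20.8 CPM or above, and mouse 2-2 was at 11.8 CPM, near the lowest vehicle mouse. The log2 fold change was -0.07 ± 0.16 in females (adjusted p = 0.827) and 0.35 ± 0.16 in males (adjusted p = 0.0958). Without male LLC1 mouse 2-2 the male value was 0.47 (adjusted p = 0.00941, range over its alternatives 0.00941 to 0.219), and it also passed without male vehicle mouse 1-1 (adjusted p = 0.0372).

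Tnfaip3 (ENSMUSG00000019850, mm10 chr10:19000910-19015657) encodes A20, a ubiquitin-editing enzyme that ends NF-kappaB signalling and is itself a target of the pathway. It was the member that went down. Its level ran from 4.78 through 6.55 to 7.54 CPM in male vehicle mice and from 1.68 through 2.48 to 5.76 CPM in male LLC1 mice. In males 5 of the 6 LLC1 mice, at 3.02 CPM or below, lay under every vehicle mouse, and mouse 1-4 at 5.76 CPM lay inside the vehicle range. In females it ran from 4.38 through 5.25 to 6.55 CPM with vehicle and from 3.08 through 3.75 to 4.73 CPM with LLC1, with overlap. On the log2 scale the male difference was -1.16 ± 0.21 (adjusted p = 2.96e-04) and the female one -0.49 ± 0.21 (adjusted p = 0.131). Leaving out the 2 mice that stood apart, a setting chosen after seeing the data, gave -1.47 in males. Mouse 1-4 was among the 2, so its removal pulled the value downward. The fit of the female groups alone called the female value (adjusted p = 0.0313), and its adjusted p ranged from 0.0313 to 0.545 over the alternatives. The B cell sum was 28.5 to 59.0 CPM in male vehicle mice. It was 75.0 CPM in male LLC1 mouse 1-4 and 9.72 to 22.5 CPM in the other 5 male LLC1 mice. The part of B cells in the Tnfaip3 values was not tested.

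Bcl3 (ENSMUSG00000053175, mm10 chr7:19808462-19822770) was the least abundant member in vehicle mice and rose in both sexes. In females it ran from 0.605 through 0.835 to 1.55 CPM with vehicle and from 1.68 through 2.70 to 3.21 CPM with LLC1. In males it ran from 0.419 through 0.725 to 1.12 CPM with vehicle and from 2.23 through 2.66 to 3.64 CPM with LLC1. These levels rest on 13 to 72 counts per library with vehicle and 62 to 125 with LLC1. Every LLC1 mouse was above every vehicle mouse of its sex, which among all genes was so, in that direction, for 4.05% in females and 4.96% in males. The nearest approach was female vehicle mouse 1-1, at 1.55 CPM, to the lowest female LLC1 mouse, at 1.68 CPM. The log2 fold change was 1.48 ± 0.22 in females (adjusted p = 1.01e-04) and 1.87 ± 0.23 in males (adjusted p = 3.99e-06). Both calls held in all 33 alternatives, between 1.41 and 1.73 in females and between 1.75 and 2.09 in males. The neutrophil sum separated the same groups, and whether the Bcl3 transcripts came from fibres or from other cells was not tested.

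**Figure D2:**
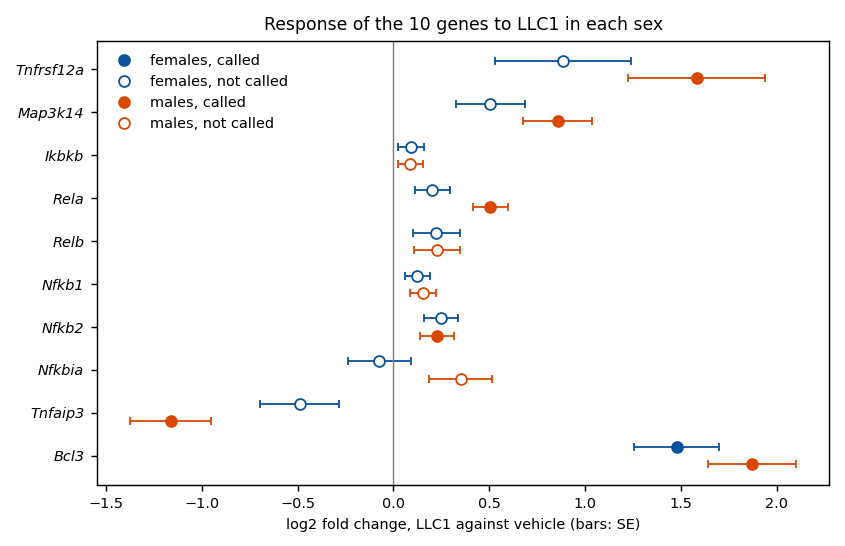
Log2 fold change of LLC1 against vehicle (horizontal axis, bars are the SE) of the 10 genes in females and in males, with filled points for values called at an adjusted p under 0.05. Bcl3 is filled in both sexes (1.48 and 1.87), Tnfaip3 lies left of 0 in both (-0.49 and -1.16), and Ikbkb lies at 0.09 in both.

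The response was further from 0 in males than in females for Bcl3, Tnfrsf12a, Map3k14, Rela, Tnfaip3, Nfkbia and Nfkb1, but the difference between the sexes passed the test for 0 of the 10. The interaction term of edgeR called 0% of all genes, with 2191 genes (12.3%) at an unadjusted p below 0.05, while DESeq2 called 57 genes and 0 members. At an unadjusted p below 0.05 there were 2 members. Rela had an interaction of 0.30 ± 0.13 on the log2 scale (adjusted p = 0.359) and Tnfaip3 of -0.67 ± 0.29 (adjusted p = 0.366). For Tnfrsf12a the interaction was 0.70 ± 0.50 with a 95% interval of -0.33 to 1.73, and for Bcl3 it was 0.39 ± 0.32 with an interval of -0.26 to 1.05. These intervals are wide enough to hold a sex difference as large as the female response of Tnfrsf12a, so equal responses were not shown either. Between the sexes in vehicle mice 0 of 10 members were called, against 6.23% of all genes, and DESeq2 also called 0. At an unadjusted p below 0.05 edgeR gave 1 member, where 20.3% of all genes lay below it. That was Relb, with a male minus female log2 difference of 0.32 ± 0.12 (adjusted p = 0.130). The others lay between -0.30 for Bcl3 and 0.26 for Tnfaip3.

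The genes around these 10 were read from 4 lists of the pathway, also drawn up with earlier results of these data known. Of 20 ligands and upstream receptors 15 were tested, and 6 were higher and 0 lower in females, while 7 were higher and 1 lower in males. Over all genes the shares were 4.97% higher and 4.95% lower in females, and 19.5% and 16.8% in males. Il1b, the cytokine interleukin-1 beta, had the largest change in both sexes, from a mean of 0.254 to 4.13 CPM in females (log2 fold change 3.95 ± 0.28, adjusted p = 8.22e-10) and from 0.145 to 5.14 CPM in males (5.04 ± 0.31, adjusted p = 7.52e-11). Tlr4, the receptor for bacterial endotoxin, rose by 0.78 and 0.97 on the log2 scale in females and males. Il1r1, the interleukin-1 receptor, rose by 0.64 in females. It was also called higher in males, where the call held in all 33 alternatives at values between 0.68 and 1.06. Ltb, a ligand of the alternative route, rose by 1.86 in males from a level of 0.164 CPM. The Ltb value rested on male LLC1 mouse 1-4, without which it was 0.54 (adjusted p = 0.428, range over its alternatives 0.0122 to 0.428), and it was 0.83 with limma-voom. The female calls of Il1r1 and Tlr4 were lost in 11 and 6 of 33 alternatives, and that of Ltb in males in 10 of 30. Tnf was below the filter, with group means of 0.0675 to 0.112 CPM. The list's median log2 fold change was 0.36 in females and 0.24 in males.

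Of 24 adaptors, ubiquitin enzymes and kinases 2 were higher and 1 lower in females, and 6 were higher and 1 lower in males, counts near the 9.92% and 36.3% of all genes called. Map3k8, the kinase Tpl2, rose by 0.59 ± 0.17 and 1.03 ± 0.17 in females and males, and Myd88, the adaptor of Toll-like and interleukin-1 receptors, by 0.42 ± 0.12 and 0.91 ± 0.13. Traf1, an adaptor of TNF receptors, rose by 0.96 in males from a level of 0.504 CPM. Nkiras1, which restrains the degradation of IkappaB proteins, fell by 0.36 in females, and Tab1, a partner of the kinase TAK1, fell by 0.38 in males. Myd88 and Nkiras1 share over 10% of their exon length with a neighbouring gene, so their counts are uncertain. Alternatives ended the female calls of Map3k8 (4 of 33) and Myd88 (5 of 33) and the male call of Traf1 (9 of 32). The medians were 0.08 and 0.12.

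Of 14 further Rel, IkappaB and inhibitor genes 3 were higher and 1 lower in females, and 7 were higher and 0 lower in males, beside 9.92% and 36.3% of all genes called in either direction. In females these were Nfkbiz, an atypical IkappaB like Bcl-3 (0.55 ± 0.13), Otulin, which removes linear ubiquitin chains (0.55 ± 0.14), Otud7b, a deubiquitinase that acts on TRAF3 (0.29 ± 0.07), and Commd1 (-0.24 ± 0.07). In males the largest were Otulin (0.71 ± 0.15), Rel, the subunit c-Rel (0.68 ± 0.16), and Tax1bp1, an adaptor through which A20 works (0.67 ± 0.14). The Commd1 call was lost in 12 of 33 alternatives, and those of Otulin and Otud7b in females in 1 each. The Otulin call in males was also lost in 1. The list's median was 0.19 in females and 0.41 in males.

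Of 23 textbook targets 21 were tested, and 5 were higher and 1 lower in females, while 5 were higher and 3 lower in males, beside 9.92% and 36.3% of all genes. Their median log2 fold changes were 0.01 and -0.09, with members on both sides of 0. Trim63, the muscle ubiquitin ligase MuRF1, went from a mean of 210 to 491 CPM in females (1.22 ± 0.35, adjusted p = 0.0285) and from 227 to 1682 CPM in males (2.89 ± 0.37, adjusted p = 1.32e-05). Ier3, an immediate early gene, rose by 1.22 ± 0.17 and 1.42 ± 0.17, and Mmp9, a gelatinase that the neutrophil list also holds, by 1.16 ± 0.34 and 1.39 ± 0.34. Sod2, the mitochondrial superoxide dismutase, fell by 0.27 in females and by 0.37 in males. Ccnd1, cyclin D1, fell by 0.97 and Nos2, inducible nitric oxide synthase, by 0.53 in males. Ccnd1 overlaps a neighbouring gene over 23.36% of its exon length. In females the call of Trim63 was lost in 5, that of Mmp9 in 9 and that of Sod2 in 13 of 33 alternatives, and in males that of Nos2 in 10 and that of Ccnd1 in 1.

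**Figure D3:**
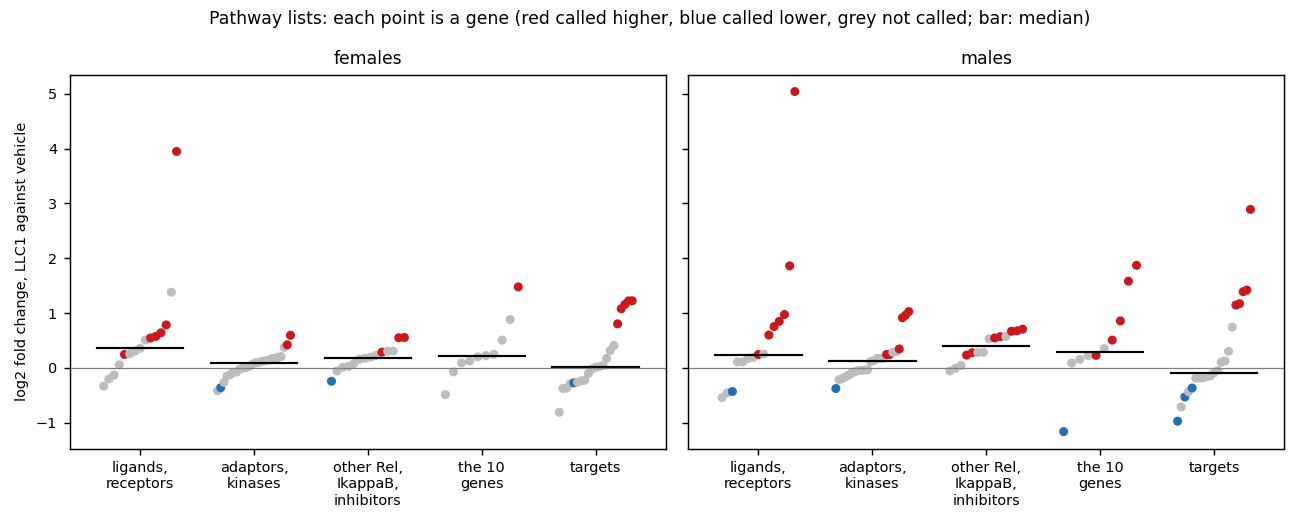
Log2 fold change of LLC1 against vehicle (vertical axis) of each tested gene of the 4 pathway lists and of the 10 genes, females at left and males at right, with a bar at each list's median. The medians lie between -0.09 and 0.41, and the highest point in each panel is Il1b, at 3.95 and 5.04.

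Mice of 1 group differed from each other, and the genes that followed a member from mouse to mouse were sought over 24 libraries as deviations from the group means of log2(CPM + 0.5), among 9203 genes with a mean of at least 5 CPM. These correlations describe the libraries, which share depth, dissection and RNA quality, and they carry no test. Tnfrsf12a went most closely with Xirp1 (r = 0.86, rho = 0.87), which encodes an actin-binding protein of muscle attachment sites, then with Hspb1, a small heat shock protein (r = 0.83), and Rnf115 (r = 0.81). Without the 2 libraries farthest out in Tnfrsf12a the value for Xirp1 was 0.82. Xirp1 was also higher with LLC1, by 0.99 ± 0.26 in females (adjusted p = 0.0173) and 0.84 ± 0.26 in males (adjusted p = 0.0147, lost in 1 of 33 alternatives). Nfkbia went with Ddit4 (r = 0.89, rho = 0.86), a stress- and glucocorticoid-induced inhibitor of mTORC1, with Rhob (r = 0.88) and with Errfi1 (r = 0.84), and the value for Ddit4 was 0.82 without its 2 farthest libraries. Ddit4 rose by 2.03 ± 0.57 in males (adjusted p = 0.00892) and was at 0.54 ± 0.56 in females (adjusted p = 0.595). Male LLC1 mouse 2-2 was lowest of all libraries in both Nfkbia and Ddit4 deviations.

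Bcl3 went with Csf2rb (r = 0.80, rho = 0.77), the shared receptor subunit for interleukin-3, interleukin-5 and GM-CSF on myeloid cells, and then with Numbl (r = 0.76) and Gm2a (r = 0.75). Without the 2 libraries farthest out in Bcl3 the values were 0.83 for Csf2rb, 0.69 for Numbl and 0.67 for Gm2a. The Gm2a value was 0.32 within male LLC1 mice and 0.69 within female LLC1 mice. Csf2rb rose by 2.10 ± 0.19 in females and by 2.54 ± 0.20 in males (adjusted p = 1.01e-07 and 6.90e-09). Numbl (-0.19 in females and -0.08 in males) and Gm2a (-0.09 and 0.002) were called in neither sex. Nfkb2 went with Mvk (r = 0.80), Cep250 (r = 0.75) and Ier2 (r = 0.72). The Mvk value was 0.71 without the 2 farthest libraries, and it was 0.95 within male LLC1 mice but 0.30 within female LLC1 mice (6 mice each). Mvk, mevalonate kinase, moved the other way with LLC1 in males (-0.64 ± 0.15, adjusted p = 0.00229, lost in 1 of 33 alternatives), so likeness from mouse to mouse was not likeness of response. Among the 10 genes the highest value was that of Rela and Map3k14 (r = 0.70, rho = 0.54), and it was 0.52 without the 2 farthest libraries.

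**Figure D4:**
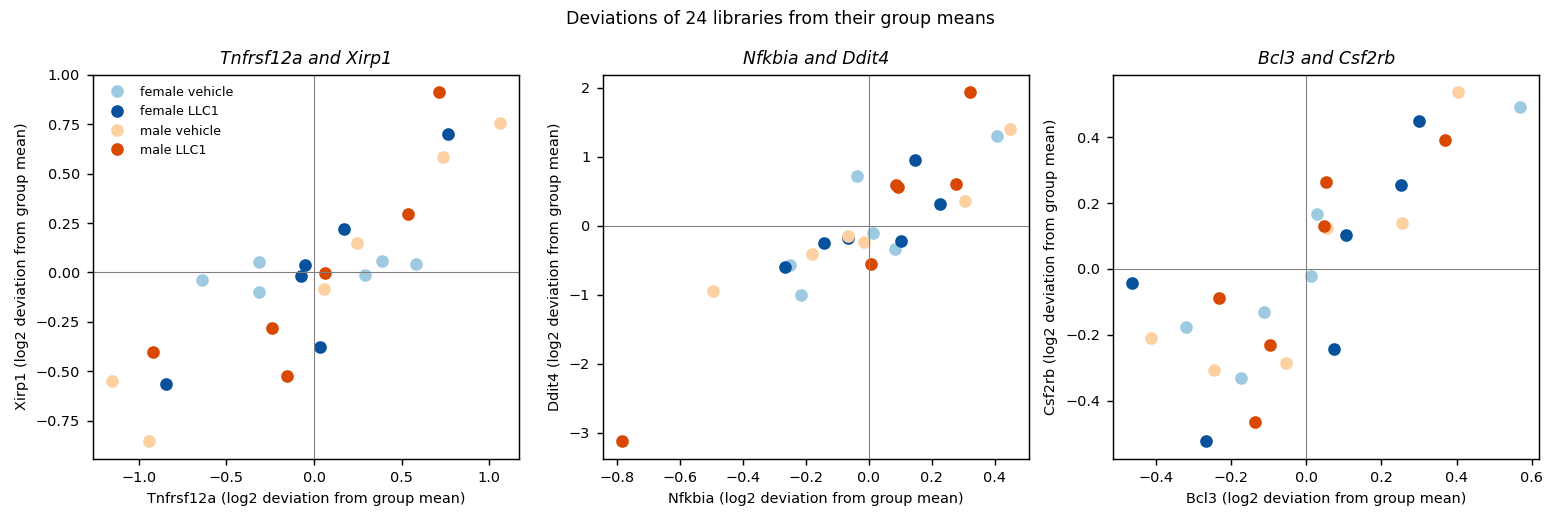
Deviation of each of 24 libraries from its group mean, in log2 units, for Tnfrsf12a and Xirp1, Nfkbia and Ddit4, and Bcl3 and Csf2rb (horizontal and vertical axes), coloured by group. The points rise from lower left to upper right in the 3 panels (r = 0.86, 0.89 and 0.80), and the male LLC1 mouse 2-2 is the low point of the middle panel.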

How the data were processed

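The members and gene lists were chosen with earlier results of these data known. Per the labels, poly(A) RNA was made into TruSeq libraries, and the submitters' processing notes name CASAVA, STAR, featureCounts and mm10. No version, option or annotation release of these is given in the sources used here. The authors deposited whole-number read counts per gene, not normalized, with exon lengths and mm10 coordinates. No header or label says more on how a read over 2 genes was counted. Totals were 26.2 to 47.4 M counts per library.

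Each library was taken as a separate mouse by its title, so that p-values reflect only how far these 24 libraries differ, which may be technical. Pairs within a group differed beyond counting noise (chi-square 10.05 to 211 per degree of freedom over 60 pairs, genes with at least 50 counts), so none was merged. Counts were tested with edgeR 4.0.16 in R 4.3.3: filterByExpr, TMM factors (0.924 to 1.10), robust quasi-likelihood F-test, 4 group means, 20 residual degrees of freedom, and Benjamini-Hochberg adjustment over 17773 genes. Calls were made below an adjusted p of 0.05, the SE follows from the F statistic, and CPM values use the TMM-scaled library size. The common biological coefficient of variation was 0.174. The script was tested on simulated data.

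All 10 members were named in 4 comparisons, and of each pathway list up to 3 genes called higher and 3 called lower with the largest change. Alternatives were DESeq2 1.42.0, its size factors, limma-voom 3.58.1, 2 other filters, only the groups compared, 2 blocks on title numbers, each library left out, and 2 libraries left out together. Promoters came from RefSeq (GRCm38.p6). Genes were marked as sharing reads by exon overlap, on either strand, in GENCODE M21. Bcl3 (6.51% of its exon length), Nfkb2 (6.52%) and Map3k14 (2.06%) overlap neighbours with few counts. Columns of values in no use numbered 0.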

Additional observations from a re-analysis of the deposited data

Results flagged for a closer look

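In 3 of the 40 combinations of a member and a group, 1 mouse lay far from the other 5 by Dixon's criterion, which chance meets in about 1 group in 20. Bcl3 in female vehicle mouse 1-1 was 1.55 CPM, with the next mouse at 0.908 CPM. Nfkbia in male LLC1 mouse 2-2 was 11.8 CPM, with the next at 20.8 CPM, and that mouse also had the lowest Tnfrsf12a and Map3k14 of its group. Tnfaip3 in male LLC1 mouse 1-4 was 5.76 CPM, with the next at 3.02 CPM, in the mouse with the highest B cell and T cell sums. The part of those cells in its Tnfaip3 level was not tested.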

How the results depend on the processing

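Each of 40 member values (10 genes, 4 comparisons) was computed under 9 other settings and with each of 24 libraries left out. Of these values 1229 kept direction and side of the threshold, 22 lost a call, all of them Nfkb2 in males, 22 gained one and 37 changed sign, none of them a called value. The causes were not tested. Members called in females numbered 3 with DESeq2 and 4 in the female groups alone, where genes called rose too, from 1763 to 2262 and 2543, and 1 to 3 with 1 library left out. Genes called in the interaction numbered 57 with DESeq2, 5 without the 2 mice that stood apart, a setting chosen after seeing the data, and 0 to 7 with 1 library left out, the highest without male LLC1 mouse 1-4. Genes called in females were 919 to 2283 with 1 library left out (lowest without female LLC1 mouse 2-3), and in the vehicle sex difference 659 to 1476 (lowest without male vehicle mouse 2-5). The interaction of Relb, near 0, was -0.00011 with DESeq2's size factors, -0.0049 with limma-voom and -0.015 with no filter. With 1 library left out the interaction ranged over -0.023 to 0.049 for Nfkb1, -0.11 to 0.023 for Nfkb2, -0.093 to 0.046 for Relb and -0.048 to 0.040 for Ikbkb, the female response of Nfkbia over -0.12 to 0.042, and the vehicle sex difference over -0.068 to 0.018 for Rela and -0.38 to 0.053 for Tnfrsf12a. What the title numbers stand for is not given. The deviations of same-numbered mice correlated at -0.23 to 0.07 within a sex and at -0.10 to 0.36 across the sexes. Apart from vehicle mice 1-3 across the sexes, no pair was over 0.1, so the numbers were not taken to pair the mice. With the replicate block on the full number, genes called were 480 in females, 3607 in males and 269 in the vehicle sex difference, and the values that changed sign were the interactions of Nfkb2 (0.018) and Ikbkb (0.0075) and the sex difference of Tnfrsf12a (0.079). Under that block Relb was called in males (adjusted p = 0.0392). With the block on the first number, 6 genes were called in the interaction, Nfkb1 was called (adjusted p = 0.0170) and Nfkb2 was not (0.0660) in males. Counting depth limits Bcl3 most, at 13 to 125 counts per library.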
